A study of Mus musculus with 20 samples.

Results

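Oxidative phosphorylation is carried out in the inner mitochondrial membrane by 5 protein complexes, and the genes described here are those of their subunits that are encoded in the nucleus. Complex I (NADH dehydrogenase, the Nduf genes) and complex II (succinate dehydrogenase, the Sdh genes) feed electrons into the chain, complex III (the Uqcr genes and Cyc1) passes them to cytochrome c, complex IV (cytochrome c oxidase, the Cox genes) hands them to oxygen, and complex V (ATP synthase, the Atp5 genes) uses the proton gradient to make ATP. Muscle tunes the level of these genes to its use, and the transcriptional coactivator PGC-1alpha (Ppargc1a), the ERR receptors and the factors NRF1 and GABP are the best known regulators of them as a group. Class IIa histone deacetylases, HDAC4 and HDAC5 among them, hold back MEF2-dependent transcription, which includes Ppargc1a.

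The members were chosen by gene name alone: every name on the array that begins with Nduf and a subunit letter and number, with Uqcr, with Cox4 to Cox8 or with Atp5, or that is Sdha, Sdhb, Sdhc, Sdhd or Cyc1. The pattern takes 85 names, of which 77 have a spot inside the part of the array that was used and 61 were tested. The whole series has 25124 gene names inside that part and 14655 genes tested. By complex, 29 of 36 names were tested for complex I, 2 of 4 for complex II, 6 of 9 for complex III, 11 of 19 for complex IV and 13 of 17 for complex V. Of the 24 names not tested, 8 have spots only in the edge zone of the array (Ndufa10, Ndufa4, Ndufs1, Ndufs8, Uqcrc2, Cox4i1, Cox7a1 and Atp5c1). Another 2, Cox7b2 and Cox8c, were well above background on 0 of 20 arrays. The remaining 14 had fewer than 3 usable arrays in at least 1 group, because the scanner software marked their spots as uneven or as outliers (among them Ndufa8, Ndufv1, Sdhb, Sdhc, Uqcrb, Uqcrfs1, Cox5b, Cox6c, Cox7a2l, Cox8b, Atp5e, Atp5j and Atp5o). Some names in the pattern are not subunits: Cox4nb is a component of a membrane protein complex of the endoplasmic reticulum, and Atp5sl is an assembly factor of complex I.

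The muscle was the EDL (extensor digitorum longus) of the hindlimb, which is made mostly of fast fibres, and its RNA was hybridised to 20 one-colour arrays. The donors were male C57Bl6 mice. They were 8 weeks old when adeno-associated virus of serotype 6 was injected in 30 µL into each of the 2 legs. Every left leg had an empty vector, and every right leg had vectors for HDAC4 and HDAC5 with a point mutation that makes them dominant negative (dnHDAC4/5), at 2.5e+10 vector genomes each. At 4 weeks after the vectors each animal had an injection of Scriptaid (a histone deacetylase inhibitor of the hydroxamate class) or of vehicle (5% DMSO in phosphate-buffered saline). The labels give neither the Scriptaid dose nor the time from that injection to the collection of the muscle. The 4 groups of 5 arrays are named by 2 letters. In vehicle animals, EV is the empty-vector leg and HV the dnHDAC4/5 leg. In Scriptaid animals, ES is the empty-vector leg and HS the dnHDAC4/5 leg. HS 1 is replicate 1 of that group. The EV and HV legs come from 5 animals and the ES and HS legs from 5 others, so the legs of an animal are paired, and every group carries a virus. The titles of the ES samples say vehicle, whereas their treatment entry, their description and their animal identifiers say Scriptaid, which was followed. The 5 slides hold 1 array of each group, always at the same place. Place on the slide and group therefore cannot be told apart.

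Values are log2 of the processed intensity of a spot minus log2 of its array's 75th percentile, so that 0 is the 75th percentile of the array and a difference of 1 is a doubling. They compare arrays at 1 probe and say nothing on the level of 1 gene against another. The share of spots well above background ran from 51.7% to 61.3% over the arrays, and the number of arrays limits the precision. The probes named for the targeted genes did not pass the test: Hdac4 differed by 0.28 ± 0.24 (SE) with the vectors in vehicle animals and by 0.30 ± 0.22 in Scriptaid animals, and Hdac5 by -0.01 ± 0.15 and -0.01 ± 0.17 (limma, 0 of them at adjusted p under 0.05). The labels do not say whether these probes read the vectors' transcripts. The fast fibre markers of the muscle were all bright, since each of the 9 tested was saturated on at least 1 array, against 1 of 9 slow fibre markers. In whole muscle, fewer cells of a type and less RNA per cell cannot be told apart.

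The promoters of these genes carry motifs of the factors that are known to regulate them. RefSeq (GRCm38.p6) held a promoter window, from 250 bases before to 50 after the start of the gene, for 69 of the 85 names. On either strand, the NRF1 motif GCGCATGCG was in 11.6% of these members, against 1.95% of all genes in the table. The YY1 motif AAGATGGC was in 15.9% against 3.19%, the ERR motif AAGGTCA in 11.6% against 5.38%, and the GABP motif CCGGAAGT in 7.25% against 4.31%. No motif overlapped another, apart from NRF1's own reverse match, and 40 of the 69 had none of the 4, which says only that these letters are not in the window. To show where they lie, 4 promoters are given from complexes I, III, IV and V, with NRF1, GABP, NRF1 and, on the opposite strand, ERR in capitals. Each is 200 bases, 5′ to 3′ on the gene's strand, and ends at the base before the start: Ndufa11 at chr17:56717562-56717761 (plus strand), Uqcr11 at chr10:80406822-80407021 (minus), Cox6a1 at chr5:115348959-115349158 (minus) and Atp5g3 at chr2:73911327-73911526 (minus). Uqcr11 also has an NRF1 match on the opposite strand, with its first base at -5. That match runs past the start and is not in capitals.
Ndufa11: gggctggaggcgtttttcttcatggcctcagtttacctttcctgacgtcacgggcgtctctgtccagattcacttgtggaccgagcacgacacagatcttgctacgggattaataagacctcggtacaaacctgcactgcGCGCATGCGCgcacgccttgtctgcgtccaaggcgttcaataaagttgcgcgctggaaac
Uqcr11: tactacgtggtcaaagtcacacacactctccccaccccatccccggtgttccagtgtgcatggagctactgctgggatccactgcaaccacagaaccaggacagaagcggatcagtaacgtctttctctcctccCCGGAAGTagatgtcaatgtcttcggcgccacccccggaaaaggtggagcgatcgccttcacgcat
Cox6a1: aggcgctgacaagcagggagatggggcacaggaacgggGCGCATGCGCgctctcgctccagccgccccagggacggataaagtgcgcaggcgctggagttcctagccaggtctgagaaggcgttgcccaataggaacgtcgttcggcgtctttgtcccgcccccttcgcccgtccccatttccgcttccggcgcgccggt
Atp5g3: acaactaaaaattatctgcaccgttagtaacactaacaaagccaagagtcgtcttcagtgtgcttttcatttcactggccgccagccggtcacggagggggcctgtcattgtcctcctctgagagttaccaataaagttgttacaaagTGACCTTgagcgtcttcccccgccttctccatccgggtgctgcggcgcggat

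The subunit genes were so bright in this muscle that the scanner could not read many of them. Of the 61 members tested, 40 (65.6%) were marked as saturated on at least 1 array by the scanner software, against 164 of the other 14594 genes (1.12%). Of the 54 genes of the series that were saturated on all 20 arrays, 10 were members (18.5%): Ndufa13, Ndufa5, Ndufs5 and Ndufs7 of complex I, Uqcr10 and Uqcrq of complex III, Cox5a and Cox6a2 of complex IV, and Atp5b and Atp5g3 of complex V. Ndufb8 was saturated on 19 arrays, Ndufb2 and Uqcr11 on 18, and Ndufb4, Ndufb9, Cyc1, Cox7b, Atp5a1, Atp5f1 and Atp5j2 on 17. In 23 members every array of at least 1 group was saturated. The authors' own series matrix holds no value on any array for 25 of the 61 members (41.0%), against 960 of the others (6.58%). Such gaps do not count saturation alone: only 164 of the others were saturated on any array, and the dim Cox4i2, among the 25, was saturated on 0.

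Saturation differed between the complexes as the name pattern groups them. In complex I, 4 of 29 members were saturated on all arrays, 16 on some and 9 on none. In complex II, 1 of the 2 tested members was saturated on some arrays. All 6 members of complex III were saturated on at least some arrays. Complex IV had the largest share on scale on every array, 7 of 11, and complex V had 4 of 13. These counts depend in part on what the pattern takes in. The 7 include Cox4nb, which is not a subunit, and the dim Cox4i2 and Cox6b2 (median raw intensities of 91 and 176). The 4 include Atp5sl, an assembly factor of complex I. The members on scale throughout were Ndufa11, Ndufa3, Ndufa6, Ndufa9, Ndufb5, Ndufb6, Ndufs4, Ndufv2, Ndufv3, Sdha, Cox4i2, Cox4nb, Cox6a1, Cox6b1, Cox6b2, Cox7c, Cox8a, Atp5d, Atp5g2, Atp5s and Atp5sl. Of these, Ndufa3 and Ndufv2 were read on dim probes of records other than RefSeq ones, with median raw intensities of 115 and 135.

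**Figure D1:**
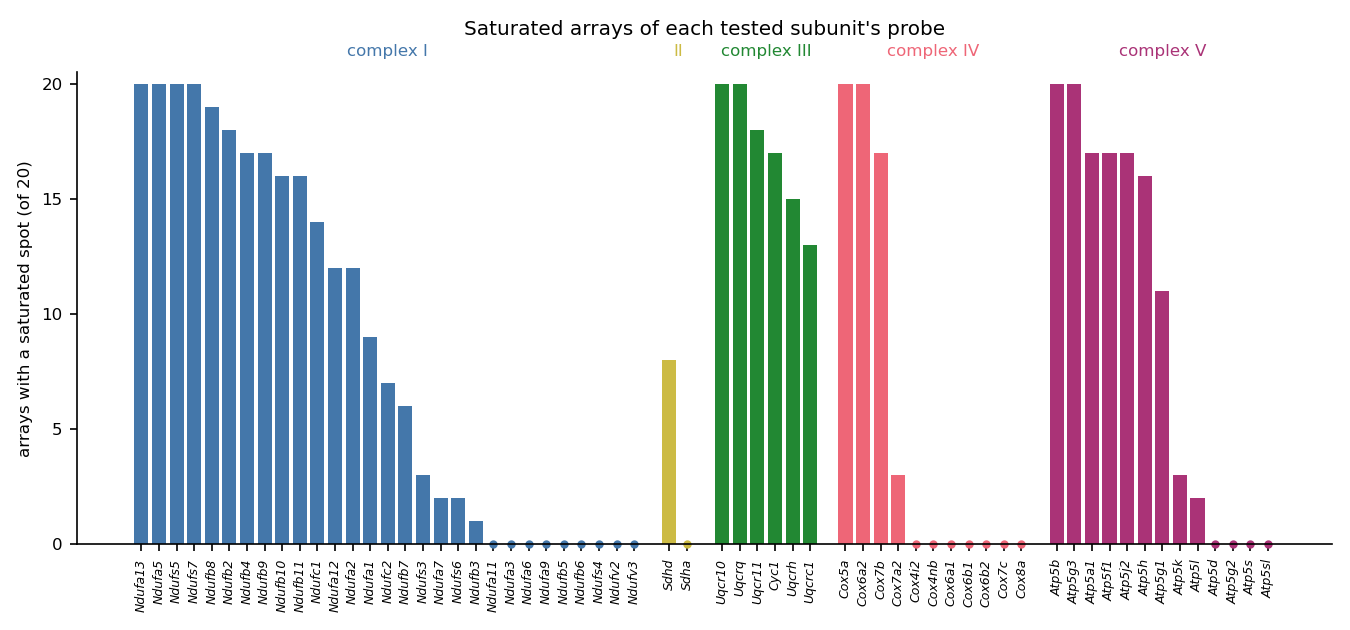
Number of arrays, of 20, on which the brightest probe of each tested member was saturated, by complex. In complex III 0 of 6 members were on scale on every array, and in complex IV 7 of 11 were. Those 7 include Cox4nb, which is not a subunit, and the dim Cox4i2 and Cox6b2.

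A saturated spot is read near the scanner's ceiling of 65535 whatever the RNA, and its scaled value then moves largely with the array's 75th percentile. The processed intensity of such spots still varied: that of Uqcr10 ran from 59030 to 81002 and that of Atp5b from 51933 to 82501, with both saturated on all arrays. The raw log2 signal of the 10 members at the ceiling on all arrays had a median SD of 0.030 over the arrays, against 0.41 for the 24 members with an on-scale probe of a RefSeq transcript. On HS 1, whose 75th percentile was 248, the lowest of all, the always-saturated members lay a median of 0.75 above their own means. On ES 3, with the highest percentile of 608, they lay at -0.52, and on HS 4 (543) at -0.45. The members read on an unsaturated probe lay at 0.21, 0.21 and 0.065 on those 3 arrays. All differences below are therefore given for the brightest probe of each of the 61 members and, as an alternative added after the data were seen, for the brightest probe that was never saturated, which 32 members have. For 8 of these 32 (Ndufa3, Ndufb2, Ndufb8, Ndufc1, Ndufv2, Uqcrq, Atp5f1 and Atp5j2) that probe was designed on a transcript record other than a RefSeq one.

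**Figure D2:**
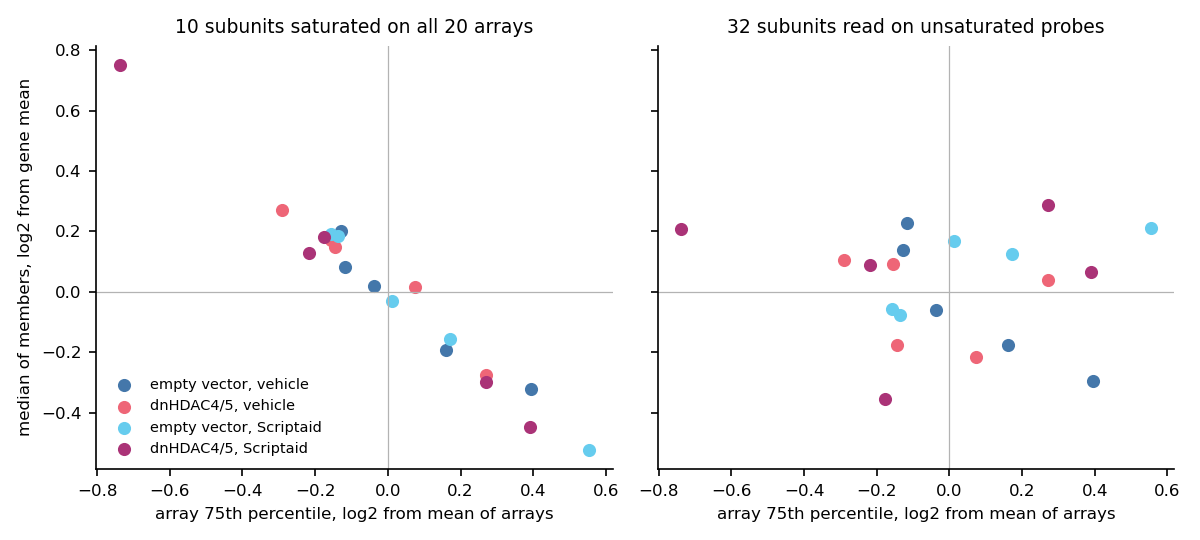
Median deviation of members from their own means on each of the 20 arrays, on the log2 scale, against the array's 75th percentile as a log2 distance from the mean of the arrays. On the left, the 10 members saturated on all arrays fall as the percentile rises, from 0.75 on HS 1 to -0.52 on ES 3, and on the right, the 32 read on unsaturated probes lie between -0.36 and 0.29.

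On slides 2, 3 and 5 the unsaturated members lay to the same side of their means in all 4 groups. Their median deviation on slide 2 was -0.29 in EV, -0.22 in HV, -0.076 in ES and -0.36 in HS, all below 0. On slide 3 it was 0.23 in EV, 0.039 in HV, 0.21 in ES and 0.29 in HS, all above 0. On slide 5 it was 0.14 in EV, 0.093 in HV, 0.17 in ES and 0.090 in HS, also all above 0. On slide 1 it was -0.18, 0.11, -0.058 and 0.21 in the same order and on slide 4 -0.061, -0.18, 0.13 and 0.065, with both signs on each. Averaged by group it was -0.033 ± 0.22 (SD, n = 5 arrays) in EV, -0.031 ± 0.15 in HV, 0.075 ± 0.13 in ES and 0.059 ± 0.25 in HS. The groups overlapped, and the spread between arrays of a group was larger than the distance between group means.

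**Figure D3:**
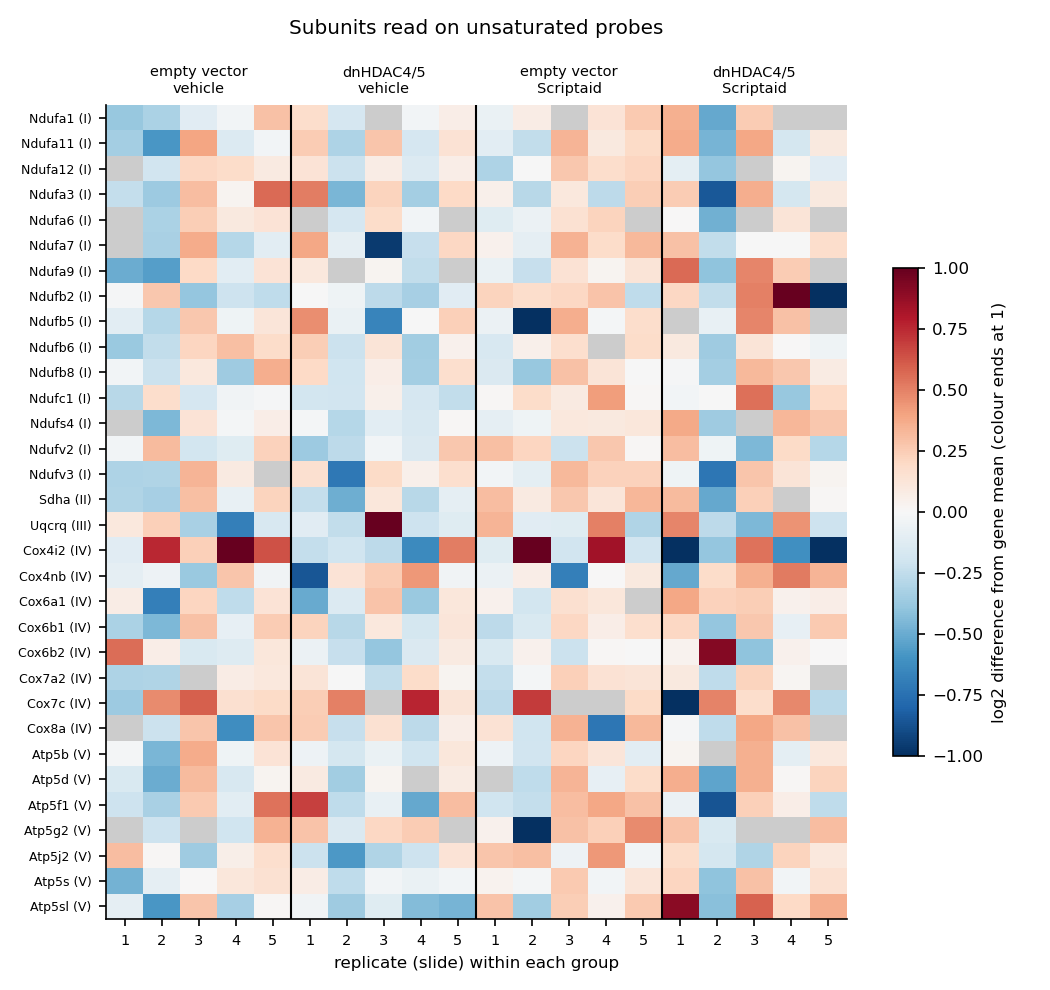
Deviation of each of the 32 members read on an unsaturated probe from its own mean, on the log2 scale (colours end at 1), with members in rows by complex, the 20 arrays in columns by group, and grey cells for spots left out. Columns of replicate 2 in EV, HV and HS are mostly below the mean (blue), and those of replicate 3 are mostly above it (red).

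No subunit gene differed between groups past the threshold, an adjusted p under 0.05 (limma, Benjamini-Hochberg over all genes tested), in any of the 7 comparisons. Against this, 0% of all genes tested passed for the vectors in vehicle animals, 0.0205% for the vectors in Scriptaid animals, 0% for Scriptaid in empty-vector legs, 0.00682% for Scriptaid in dnHDAC4/5 legs, 0.232% for the vectors averaged over both injections, 0% for the interaction of vectors and Scriptaid, and 0% for Scriptaid on the means of each animal's legs. At an unadjusted p under 0.05 the counts of members, in the same order, were 0, 1, 0, 1, 1, 0 and 1. The shares of all genes were 4.85%, 8.92%, 4.07%, 7.67%, 10.6%, 2.16% and 5.32%, so the members' counts do not stand above the background. These fits treat the legs of an animal as separate samples. With the animal as a replicate block, 1 member, Cox4i2, passed in the averaged vector comparison (adjusted p = 0.045, limma), where 3.48% of all genes passed. No other member passed in any comparison. The probe of Cox4i2 is dim and was well above background on 5 of 20 arrays, the fewest the filter allows. All of these but HS 3 are empty-vector legs, the side where it read higher, so this pass is not independent of the filter.

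In the vehicle animals, the comparison of the dominant-negative deacetylases alone, 45 of the 61 members were higher in HV than in EV, with a median difference of 0.058 against -0.00030 over all genes tested. On the unsaturated probes the count was 14 of 32 and the median -0.012. In the Scriptaid animals 37 of 61 were higher in HS than in ES (median 0.047, all genes 0.031), and 14 of 32 on unsaturated probes (median -0.030). The larger counts did not hold on the probes that stayed on scale. With normexp background correction in place of the scanner's, the median over the members was 0.43 in vehicle animals (all genes -0.067), with 0 members past the test. Within slides 1 to 5 the unsaturated members had medians of 0.24, 0.033, -0.13, -0.10 and -0.062 in vehicle animals and 0.16, -0.24, 0.033, -0.069 and -0.097 in Scriptaid animals, with both signs in each. Averaged over both injections, 43 of 61 members and 16 of 32 unsaturated ones were higher with the vectors.

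For Scriptaid against vehicle the counts also differed between the probe sets. On the brightest probes 27 of 61 members were higher with Scriptaid in the empty-vector legs (median -0.012, all genes 0.016), and 27 of 61 in the dnHDAC4/5 legs (median -0.022, all genes 0.046). With normexp the median in the empty-vector legs was 0.38 (all genes -0.065), also with 0 past the test. On the unsaturated probes 24 of 32 were higher in the empty-vector legs, with a median of 0.089 (all genes 0.017), and 22 of 32 in the dnHDAC4/5 legs, with a median of 0.096 (all genes 0.048). Among the 24 with a RefSeq probe the count was 17 in each. On animal means 25 of 32 were higher, with a median of 0.064. Within slides 1 to 5 the median over these members was 0.21, 0.23, -0.030, 0.16 and -0.0041 in the empty-vector legs, above 0 on 3 of 5. In the dnHDAC4/5 legs it was 0.10, -0.093, 0.24, 0.21 and -0.052, also above 0 on 3 of 5, and slides 2 and 3 went opposite ways in the 2 kinds of leg. No member passed with the slide as a term. None passed the test, and these 3 comparisons share arrays.

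The intervals say how large a difference could have gone unseen. Over the 32 members on unsaturated probes, the 95% confidence interval of the difference lay within 2-fold for 29 in each of the 4 comparisons of groups and for 30 in the averaged vector comparison. It lay within 1.5-fold for 23, 20, 19 and 16 in the 4 comparisons and for 29 in the averaged one. Cox4i2 and Cox7c had intervals that reached past 2-fold in each of these 5 comparisons. Atp5g2 did in both vector comparisons of groups and for Scriptaid in empty-vector legs, and Atp5sl for Scriptaid in dnHDAC4/5 legs.

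**Figure D4:**
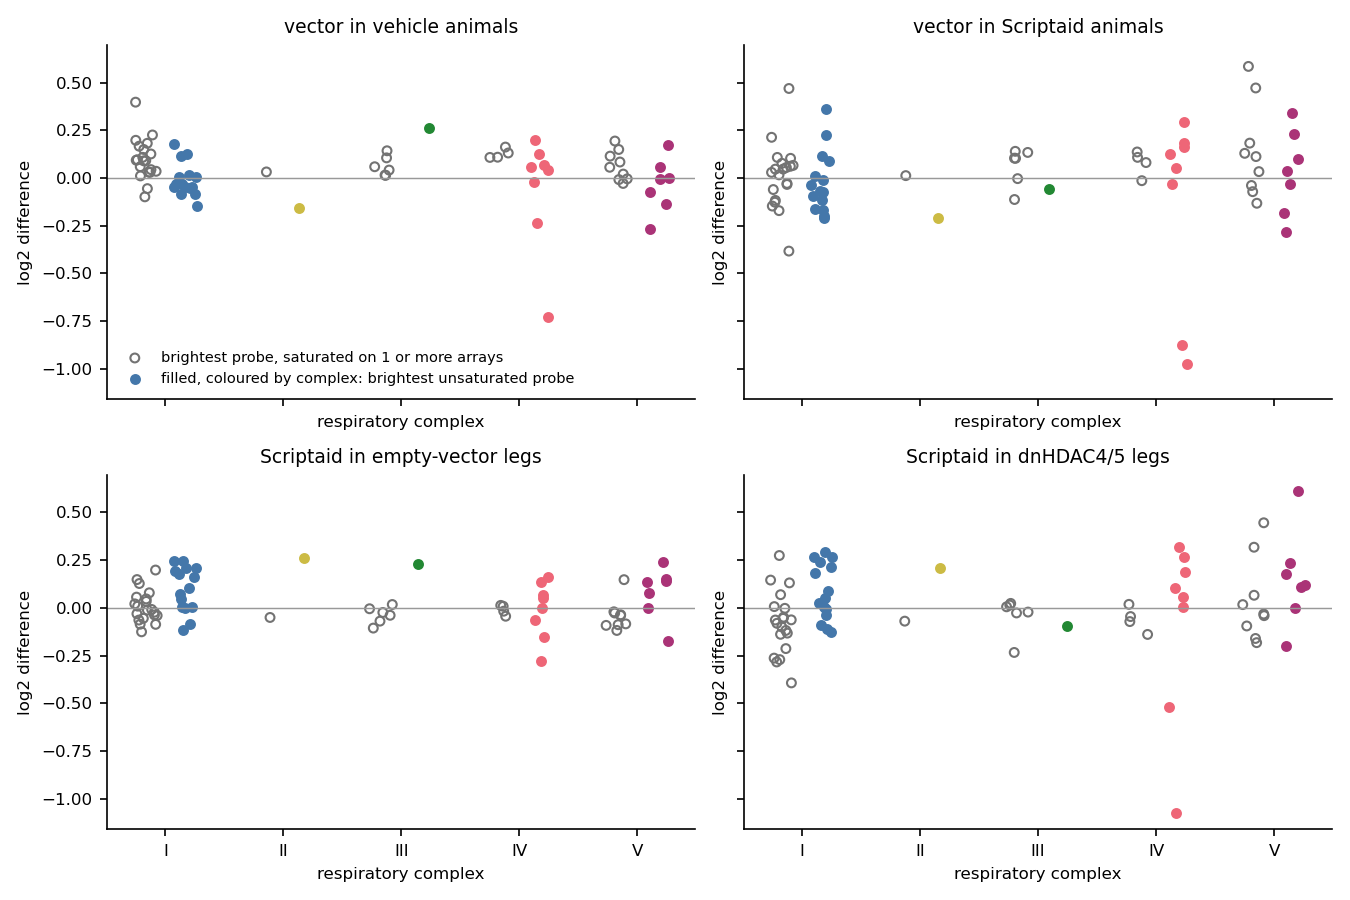
Log2 difference of each member in the 4 comparisons of groups, by complex, with open circles for brightest probes saturated on 1 or more arrays and filled circles for the brightest unsaturated probe. With the vectors in vehicle animals most open circles lie above 0 while the filled ones lie on both sides, and the lowest filled circle there is Cox4i2 at -0.73.

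Complex I, the largest complex and the entry point for NADH, had 15 members on unsaturated probes, 10 of them on a probe of a RefSeq transcript. Of the others, Ndufa3 and Ndufv2 were read on dim probes, so the counts below are not all of well-measured subunits. With the vectors 6 of 15 were higher in vehicle animals (median -0.034) and 5 of 15 in Scriptaid animals (median -0.070). With Scriptaid 12 of 15 were higher in the empty-vector legs (median 0.10) and 10 of 15 in the dnHDAC4/5 legs (median 0.051). Ndufs4, an accessory subunit near the NADH-oxidising module whose loss causes Leigh-like disease in mice, was read at 5.90, 6.48, 6.32 and 6.41 in EV 2 to EV 5 and at 6.33, 6.06, 6.24, 6.18 and 6.36 in HV. In ES it was 6.26, 6.30, 6.45, 6.44 and 6.46, and in HS 6.72, 5.99, 6.68 and 6.61 in replicates 1, 2, 4 and 5. The highest value was in HS, the lowest in EV, and the groups overlapped. Scriptaid differed from vehicle by 0.10 ± 0.15 in the empty-vector legs and by 0.26 ± 0.15 (adjusted p = 0.73, limma) in the dnHDAC4/5 legs. The first turned to -0.02 without EV 2, and the second was 0.44 without HS 2.

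Ndufa7, an accessory subunit, gave 0.28 ± 0.12 for Scriptaid on animal means with its unsaturated probe (adjusted p = 0.92) and 0.00 ± 0.11 with its brightest. On the unsaturated probe its values ran from 5.21 to 5.91 in EV, 4.58 to 5.92 in HV, 5.44 to 5.88 in ES and 5.29 to 5.83 in HS, so the groups lay over each other. Ndufa11, a membrane-arm subunit, differed by 0.18 ± 0.20 with the vectors in vehicle animals and by 0.19 ± 0.20 with Scriptaid in empty-vector legs. Ndufs6, a subunit with a zinc site, differed by 0.20 ± 0.15 with Scriptaid in the empty-vector legs. Ndufa2, saturated on 12 arrays, differed by -0.39 ± 0.22 with Scriptaid in the dnHDAC4/5 legs (adjusted p = 0.72). Ndufc1, saturated on 14, differed by -0.38 ± 0.18 with the vectors in Scriptaid animals (adjusted p = 0.57), where only 1 pair of legs was complete. Averaged over both injections that difference was -0.22 ± 0.12. On the unsaturated probe of Ndufc1, Scriptaid gave 0.21 ± 0.14 in the empty-vector legs, higher on 5 of 5 slides, and 0.22 ± 0.14 in the dnHDAC4/5 legs, higher on 4 of 5. Ndufb8 and Ndufb9 have brightest probes at the ceiling on 19 and 17 arrays, and the fitted values, 0.47 ± 0.24 for Ndufb8 in Scriptaid animals and 0.40 ± 0.34 for Ndufb9 in vehicle animals, set a group with every array at the ceiling against another. On its unsaturated probe Ndufb8 gave 0.09 ± 0.17 for the same comparison. The edge-only members were saturated on 0 arrays for Ndufa10 and Ndufs8, on 5 for Ndufs1 and on 9 for Ndufa4, a protein now assigned to complex IV.

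Complex II, the link between the citrate cycle and the chain, could be read on 2 of its 4 subunits. Sdha, the flavoprotein that oxidises succinate, was on scale on all arrays, at 5.31, 5.28, 5.91, 5.54 and 5.83 in EV and at 5.38, 5.13, 5.73, 5.34 and 5.52 in HV. In ES it was 5.92, 5.71, 5.88, 5.74 and 5.94, and in HS 5.93, 5.11, 5.85 and 5.63 in replicates 1, 2, 3 and 5. The ES values lay close together near the top of the EV range, and HS 2 was the lowest of all. The differences were 0.26 ± 0.17 for Scriptaid in empty-vector legs (higher on 4 of 5 slides, adjusted p = 1.00) and 0.21 ± 0.18 in dnHDAC4/5 legs (3 of 4). With the vectors they were -0.16 ± 0.17 in vehicle animals and -0.21 ± 0.18 in Scriptaid animals, the latter -0.04 without HS 2. Sdhd, a membrane anchor, was saturated on 8 arrays (1 in EV, 1 in HV, 3 in ES and 3 in HS) and gave values between -0.07 and 0.03. Sdhb, the iron-sulfur subunit, and Sdhc, the other anchor, had too few usable arrays.

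Complex III, which oxidises ubiquinol, could hardly be measured. Uqcrq, a small subunit, and Uqcr10 were at the ceiling on all 20 arrays, so no difference can be given for their brightest probes. Uqcr11 was at the ceiling on 18 and Cyc1, the cytochrome c1 haem protein, on 17. Uqcrc1, a core protein saturated on 13 arrays, differed by -0.11 ± 0.20 with Scriptaid in empty-vector legs and by -0.23 ± 0.21 in dnHDAC4/5 legs. The 1 unsaturated probe of the complex, for Uqcrq, ran from -3.47 to -2.54 in EV and from -3.08 to -2.28 in ES, and gave 0.23 ± 0.27 for Scriptaid in these legs and -0.09 ± 0.27 in the others, which turned to 0.18 without HV 3, an array at -1.61. That probe is dim, with raw intensities of 89.5 to 190 against a median of 65502 on the brightest probe of Uqcrq. On EV 4 it was not well above background. Uqcrb and the Rieske protein gene Uqcrfs1 were not tested, and Uqcrc2 lay in the edge zone at 0 saturated arrays.

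Complex IV is built with tissue-specific isoforms, and the probes of its muscle isoforms were at the ceiling. Cox6a2, the heart and muscle form of subunit 6a, was at the ceiling on all 20 arrays, while Cox6a1, the liver form, was on scale. Cox7a1, the muscle form of 7a, lay in the edge zone and was at the ceiling on 20 arrays, and Cox4i1, the common form of subunit 4, lay there at 18. Cox6a1 was 6.41, 5.65, 6.55, 6.08 and 6.47 in EV, 5.83, 6.20, 6.62, 5.97 and 6.45 in HV, 6.38, 6.16, 6.50 and 6.45 in ES 1 to ES 4, and 6.72, 6.57, 6.58, 6.38 and 6.40 in HS. HS was the only group with no value under 6.3. Its value of 6.72 on HS 1 lay above the highest of the other groups, 6.62 on HV 3. The remaining HS values lay within the range of the others. Scriptaid gave 0.14 ± 0.18 in empty-vector legs and 0.32 ± 0.17 in dnHDAC4/5 legs (higher on 3 of 5 slides, adjusted p = 0.70), and the first turned to -0.01 without EV 2. Cox6b1, the common form of 6b, differed by 0.05 to 0.07 in each of the 4 comparisons. Cox6b2, the testis form, gave -0.24 ± 0.19 with the vectors in vehicle animals and was lower in HV than in EV on 5 of 5 slides (adjusted p = 1.00). Without EV 1 it was -0.12. Cox8a, the common form of subunit 8, gave 0.05 ± 0.24 and 0.10 ± 0.24 with Scriptaid in the empty-vector and dnHDAC4/5 legs, and Cox7a2, the common form of 7a, 0.16 ± 0.14 and 0.00 ± 0.14 on its unsaturated probe. Cox8b, the muscle form of subunit 8, and Cox7a2l, a supercomplex factor, had too few usable arrays.

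Cox4i2, the oxygen-responsive form of subunit 4 that is known from lung and blood vessels, had the smallest p of any member in the averaged vector comparison, on a dim probe. It was well above background on 5 of 20 arrays, EV 2, EV 4, ES 2, ES 4 and HS 3, and on 0 in HV. The fitted differences below therefore rest largely on spots that were not well above background, and no fold is given. Those 5 arrays are the fewest the filter allows, and it entered the test mainly through the empty-vector legs, where it read higher. It was -4.94, -4.07, -4.59, -3.51 and -4.19 in EV and -5.06, -5.02, -5.08, -5.46 and -4.31 in HV. In ES it was -4.94, -3.72, -5.02, -3.99 and -5.02, and in HS -6.25, -5.21, -4.28, -5.44 and -6.37. HV was lower than EV on 5 of 5 slides, HS lower than ES on 4 of 5, and the groups overlapped. The fitted differences were -0.73 ± 0.38 in vehicle animals (adjusted p = 1.00), -0.97 ± 0.38 in Scriptaid animals (adjusted p = 0.41) and -0.85 ± 0.27 averaged over both (95% interval -1.41 to -0.29, adjusted p = 0.18). The interaction was -0.24, with an interval from -1.36 to 0.87. When each of the 20 arrays was left out of the fit with the animal as a block, the averaged difference passed in 4 (without EV 1, HV 5, ES 3 or HS 3) and missed in 16, with adjusted p from 0.0063 to 0.10 and differences from -1.03 to -0.74.

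Markers of endothelial cells did not move past the test with it: the 4 tested gave a median of -0.010 in vehicle animals and -0.14 in Scriptaid animals, where 4 of 4 were lower, and -0.094 averaged over both. Their summed level relative to the 75th percentile ran from 11.4 to 20.3 in EV, 13.1 to 19.1 in HV, 11.8 to 20.4 in ES and 9.78 to 18.3 in HS. The 6 adipocyte markers tested, with a median of -0.47 in vehicle animals and 1.95 in Scriptaid animals, had summed levels of 7.32 to 89.4 in EV, 2.39 to 58.3 in HV, 1.48 to 95.1 in ES and 7.35 to 175 in HS. None of these 10 markers passed the test, none of them was at 0 on all arrays, and their part in the values of Cox4i2 was not tested.

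Cox7c, a small membrane subunit, shows how far 1 array can carry a value. It read 0.75 on HS 1 and 4.70 to 5.46 on the other HS arrays, and Scriptaid in the dnHDAC4/5 legs gave -1.08 ± 0.71 (adjusted p = 0.77). Without HS 1 the difference was -0.19. Cox4nb, which is not a subunit, differed by 0.29 ± 0.23 with the vectors in Scriptaid animals, and by 0.19 ± 0.23 with Scriptaid in dnHDAC4/5 legs, where it was higher on 5 of 5 slides.

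Complex V makes the ATP, and its catalytic beta subunit Atp5b was at the ceiling on all 20 arrays with its brightest probe, as was Atp5g3, one of the 3 genes for the c ring. Atp5g1, another, was saturated on 11 arrays (1 in EV, 3 in HV, 4 in ES and 3 in HS). Atp5g2, the last of them, was on scale, at means of 5.70 in EV, 5.87 in HV, 5.53 ± 1.03 (SD) in ES and 5.87 in HS, with 1 low value of 3.71 on ES 2. It gave -0.17 ± 0.44 with Scriptaid in empty-vector legs and 0.17 ± 0.46 with the vectors in vehicle animals. Without ES 2 the Scriptaid difference turned to 0.28. Atp5f1, a stalk subunit, gave 0.58 ± 0.29 with the vectors in Scriptaid animals on a probe at the ceiling on 17 arrays, and -0.28 ± 0.24 on an unsaturated probe, the opposite sign. The unsaturated probe, not of a RefSeq record, had raw intensities of 260 to 779, against a median of 63844 on the other. Whether both read the same transcript was not tested. On its unsaturated probe Atp5b gave 0.10 for the vectors in Scriptaid animals, against 0.47 ± 0.26 at the ceiling. Atp5l, a membrane subunit, differed by 0.15 ± 0.18 with the vectors in vehicle animals, where Atp5h, of the stalk, had a group with every array at the ceiling (0.19 ± 0.27 as fitted). Atp5s, a coupling factor, differed by 0.13 ± 0.14 with Scriptaid in empty-vector legs. Atp5c1, the gamma subunit, lay in the edge zone and was saturated on 13 arrays.

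Atp5sl, the assembly factor of complex I that the name pattern takes in with complex V, had the smallest p of any member for Scriptaid in the dnHDAC4/5 legs and on animal means, but not in the empty-vector legs. It was 2.18, 1.70, 2.55, 1.95 and 2.28 in EV and 2.24, 1.92, 2.16, 1.84 and 1.81 in HV. In ES it was 2.56, 1.93, 2.52, 2.32 and 2.54, and in HS 3.18, 1.86, 2.87, 2.47 and 2.64. The HS arrays lay above every HV array except for HS 2, which was near the bottom of HV. The differences were 0.61 ± 0.21 in the dnHDAC4/5 legs (higher on 4 of 5 slides, adjusted p = 0.44), 0.24 ± 0.21 in the empty-vector legs and 0.43 ± 0.18 on animal means (adjusted p = 0.93). Without HS 2 the adjusted p was 0.094, and with the slide as a term 0.096, so that it stayed short of the threshold.

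**Figure D5:**
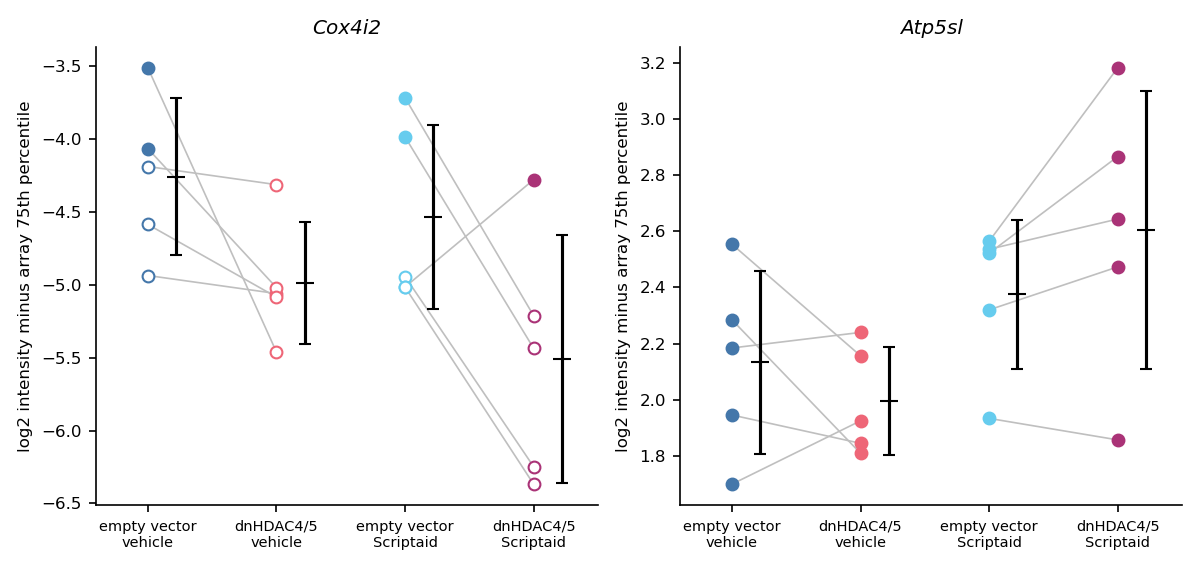
Values of Cox4i2 and Atp5sl on each of the 20 arrays, on the log2 scale relative to the array's 75th percentile, by group, with grey lines joining the legs of an animal, bars for the group mean and SD, and open circles for spots not well above background. Cox4i2 is lower in the dnHDAC4/5 leg of 9 of 10 animals, and Atp5sl is highest on HS 1 at 3.18.

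Most of the known regulators of these genes had higher values with Scriptaid, again short of the threshold after adjustment. Of 18 regulators tested, 16 were higher with Scriptaid in the empty-vector legs (median 0.12) and 15 in the dnHDAC4/5 legs (median 0.15), and 10 of 18 with the vectors in each kind of animal (medians 0.015 and 0.038). None passed in any comparison (limma), and 2 in each kind of leg had an unadjusted p under 0.05, as had 4.07% and 7.67% of all genes. Over all 14655 genes tested, 7898 were higher with Scriptaid in the empty-vector legs and 8549 in the dnHDAC4/5 legs. Ppargc1a, the PGC-1alpha gene, differed by 0.35 ± 0.16 in the empty-vector legs (adjusted p = 1.00) and by 0.56 ± 0.16 in the dnHDAC4/5 legs (adjusted p = 0.34), and by 0.45 ± 0.11 on animal means. The smallest adjusted p of any gene on animal means was 0.15 (limma). Ppara, a nuclear receptor of fat oxidation that was picked out after its values were seen, differed by 0.71 ± 0.23 and 0.83 ± 0.23 in these legs (adjusted p = 0.99 and 0.34). Esrra, the ERRalpha gene, gave 0.27 ± 0.20 and 0.35 ± 0.20, and Esrrg, for ERRgamma, 0.19 and 0.44 ± 0.27. Nrf1 gave 0.14 and 0.22 ± 0.16, Gabpa 0.03 and 0.08, and Tfam, which packs and transcribes mitochondrial DNA, 0.04 and 0.15. All the regulators named here were higher in both kinds of leg, and those that were lower are not named.

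No gene of the other mitochondrial lists passed the test in any of the 7 comparisons. Of 27 assembly factors 20 and 19 were higher with Scriptaid in the empty-vector and dnHDAC4/5 legs (medians 0.091 and 0.13), and of 14 citrate cycle genes 11 in each (medians 0.13 and 0.12). Of 69 mitochondrial ribosome genes 59 and 52 were higher (medians 0.098 and 0.048), and the 8 genes of electron carriers had medians of 0.15 and 0.16. Over all genes tested the medians were 0.016 and 0.046. Cs, citrate synthase, was saturated on 19 arrays, and Cycs, cytochrome c, differed by -0.03 and 0.29 ± 0.17 with Scriptaid in the empty-vector and dnHDAC4/5 legs. The 3 subunit genes of mitochondrial DNA that were tested were all saturated.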

How the data were processed

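RNA of 20 EDL samples was measured on 1-colour arrays. Per the file headers, arrays of design Agilent-014868 were read with Feature Extraction 9.5.1.1 (protocol GE1-v5_95_Feb07), which subtracted the background and wrote the processed intensity that the authors deposited for each of 45018 spots, 43379 of them not controls. The series matrix holds a ratio that the authors deposited: the processed intensity over 1 constant per array (858 to 1720, by the files), with column medians from 0.27 to 0.33. Its centring is unstated, and it served as an alternative.

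Here log2 of the processed intensity was taken minus log2 of the array's 75th percentile. Spots in columns 1 to 77 of 85 and rows 11 to 522 of 532 were used. Spots marked as uneven or as outliers were left out, and saturated ones were kept. A probe needed to be well above background on at least 5 arrays with at least 3 arrays left per group, and each gene was read on its probe of highest mean. In R 4.3.3, limma 3.58.1 compared the groups: lmFit and eBayes, two-sided, over 4 group means, Benjamini-Hochberg over all genes tested, threshold 0.05. Errors are standard errors unless given as SD.

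The members and lists were chosen with earlier results of these data known. Members named are those called, the 2 with the smallest p per complex and comparison (groups and averaged vectors), the isoform families, complex II, the members not tested and the names that are not subunits. Of other genes, Ppargc1a, Esrra, Esrrg, Nrf1, Gabpa, Tfam, Cycs and Cs are named. Of 19 members with 2 or more probes, 0 had probes of opposite sign that both passed 0.3. That rule does not count Atp5f1, whose probes had opposite signs for the vectors in Scriptaid animals but of which only 1 passed 0.3.

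The labels pair the legs of an animal. The correlation of their deviations over genes ran from 0.024 to 0.43 in vehicle animals and from 0.23 to 0.40 in Scriptaid animals. The steps were tested on simulated data: of 12820 genes in the comparison of vectors in vehicle animals, 65 of 100 genes changed by a log2 of 1 were called and 88 of 100 changed by a log2 of 2, with 10 unchanged genes called. The simulated noise was independent between genes and arrays, on genes with no spot left out. It held no pairing of legs, no shifts of whole arrays and no scanner ceiling, so these rates are not those of the subunit genes. The unmatched columns number 0. Alternatives were other normalizations, filters, probe rules, the slide and the animal as terms, array weights, and leaving out each array. Unsaturated probes, saturated spots left out, the blocked fit with each array left out, and each array left out on unsaturated probes were added after seeing the data.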

Additional observations from a re-analysis of the deposited data

Results flagged for a closer look

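In 120 groups of 4 or 5 arrays of the members read on unsaturated probes, 9 held a sample far from the others by Dixon's test, which chance does in about 1 in 20 groups. Values are log2 relative to the array's 75th percentile. Cox7c read 0.75 on HS 1, with the nearest other HS array at 4.70. Atp5g2 read 3.71 on ES 2, with the nearest at 5.77. The unsaturated probe of Uqcrq read -1.61 on HV 3, above the nearest at -2.89, and that of Ndufc1 read -2.55 on HV 3, above -2.76. Ndufv3, a flavoprotein subunit of complex I, read 4.22 on HV 2 against 4.98, and Atp5d, the delta subunit of ATP synthase, 6.11 on HV 2 against 6.49. Ndufs4 read 5.99 on HS 2 against 6.61. Cox4nb read -0.64 on ES 3 against -0.015, and the unsaturated probe of Ndufb2 read -4.65 on ES 5 against -4.22.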

How the results depend on the processing

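No member was called under any alternative but the animal as a replicate block, in which 1 was (Cox4i2, averaged vectors, adjusted p 0.0447) and the calls among all genes went from 34 to 510. The dim probe of Cox4i2 met the filter only at its minimum, mainly through empty-vector legs. The pairing changed no other member's call. With normexp background correction the members' median difference became 0.4334 for the vectors in vehicle animals and 0.3826 for Scriptaid in empty-vector legs (all genes -0.067 and -0.065), with 0 called. Of 1747 values of named members, 53 had the opposite sign to the reported one, 40 of them where the reported value was within its SE of 0. The other 13 were these. Ndufc1, vector averaged over both injections: 0.03035 with marked spots kept and 0.1375 with normexp. Sdha, vector averaged over both injections: 0.01393 with normexp. Atp5b, vector in Scriptaid animals: -0.05832 with the authors' matrix. Atp5f1 gave -0.3389, -0.2615 and -0.1363 with the matrix, and -0.2816, -0.2027 and -0.1425 with unsaturated probes or saturated spots left out (Atp5f1, vector in Scriptaid animals; Atp5f1, Scriptaid in dnHDAC4/5 legs; Atp5f1, vector averaged over both injections). These causes were not tested. On unsaturated probes, Cox7c gave 0.01379 for the vectors in Scriptaid animals without HS 1. The members' median changed sign in 55 of 240 values, each time by less than its SD over slides except with normexp for Scriptaid in empty-vector legs.

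Over all genes, calls ranged over the alternatives from 0 to 4 for the vectors in vehicle animals, 0 to 195 in Scriptaid animals, 0 to 1 and 0 to 202 for Scriptaid in empty-vector and dnHDAC4/5 legs, 5 to 510 for averaged vectors, 0 to 28 for the interaction and 0 to 32 on animal means. With each array left out, the averaged vectors gave 11 to 215. The members tested numbered 34 with the matrix and 75 with marked spots kept. Of the 85 names, 61 were tested, and the others were lost to the edge zone, dim probes or marked spots. Among the 61, saturation is the main limit: 32 have a probe that was saturated on no array.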
